A study of Mus musculus with 8 samples.

Results

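Small nucleolar RNAs (snoRNAs) and small Cajal body RNAs (scaRNAs) were described in the pharyngeal arches and looping heart of mouse embryos. They were chosen by name alone, as every gene symbol of the deposited count table that starts with Snora, Snord or Scarna followed by a digit. This gave 119 of 23420 genes, made up of 36 box H/ACA RNAs (Snora), 74 box C/D RNAs (Snord) and 9 Cajal body RNAs (Scarna). RNA-seq libraries came from 4 Pygo2 mutant embryos and 4 wild-type littermates at 10.5 days post coitum, with 1 library per embryo. Pygo2 encodes a nuclear cofactor of β-catenin in Wnt signalling, and the altered part of the gene is not named in the labels. Both groups shared the dissection, which took the arches together with the heart, and a stranded total RNA kit with removal of ribosomal RNA from 300 ng of input. Such a library keeps RNA without a poly(A) tail.

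Box C/D snoRNAs guide the methylation of ribosomal RNA on the ribose, carried out by fibrillarin, and box H/ACA snoRNAs guide the change of uridine to pseudouridine, carried out by dyskerin. A few of them act in the cutting of the ribosomal RNA precursor instead. scaRNAs share the same boxes and do the same work on the small nuclear RNAs of the spliceosome, in Cajal bodies. Most of these RNAs have no promoter of their own in mammals and are trimmed out of the introns of host genes, many of which code for ribosomal proteins or for factors of translation. In gene counts, a read from the finished small RNA and a read from the unspliced host transcript cannot be told apart.

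Some of the RNAs with the highest counts are shown here from the GENCODE M21 transcripts of the GRCm38 build, the same build as mm10. Capitals mark the C box (NTGATGA, or NTGANGA where the first was absent, in the first 20 bases) and the D box (CTGA, in the last 20 bases) of the box C/D type, and the ACA triplet in the last 8 bases of the box H/ACA type. The sense strand alone was searched. The box C/D RNA Snord17 lies at chr2:144265979-144266216 on the minus strand, in an intron of Snx5. Snord15b at chr7:99479563-99479707 and Snord15a at chr7:99482785-99482932 lie on the minus strand within Rps3. Snord22 lies at chr19:8725866-8725991 on the plus strand within the noncoding gene Snhg1.
Snord17: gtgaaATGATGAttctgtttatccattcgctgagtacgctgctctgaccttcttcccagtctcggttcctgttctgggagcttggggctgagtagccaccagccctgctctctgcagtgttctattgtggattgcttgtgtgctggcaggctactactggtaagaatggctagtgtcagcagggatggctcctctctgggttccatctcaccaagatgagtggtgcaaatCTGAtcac
Snord15b: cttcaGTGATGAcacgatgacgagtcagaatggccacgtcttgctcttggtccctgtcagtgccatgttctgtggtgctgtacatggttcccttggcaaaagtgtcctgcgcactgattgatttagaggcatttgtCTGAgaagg
Snord15a: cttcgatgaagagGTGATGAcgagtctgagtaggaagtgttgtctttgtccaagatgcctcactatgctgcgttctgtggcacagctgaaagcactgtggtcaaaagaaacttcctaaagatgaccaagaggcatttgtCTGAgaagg
Snord22: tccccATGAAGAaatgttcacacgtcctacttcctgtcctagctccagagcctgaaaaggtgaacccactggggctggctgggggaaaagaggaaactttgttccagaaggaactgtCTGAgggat
The box H/ACA RNA Snora23, at chr7:110046364-110046547 on the plus strand in an intron of Ipo7, ends in the ACA triplet.
Snora23: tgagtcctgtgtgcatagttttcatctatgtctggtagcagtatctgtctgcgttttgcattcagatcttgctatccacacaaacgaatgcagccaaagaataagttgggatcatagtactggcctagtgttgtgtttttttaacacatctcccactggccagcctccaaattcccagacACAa
The Cajal body RNA Scarna6 lies at chr1:87784556-87784820 on the plus strand in an intron of Atg16l1, and carries a C box and a D box at its ends.
Scarna6: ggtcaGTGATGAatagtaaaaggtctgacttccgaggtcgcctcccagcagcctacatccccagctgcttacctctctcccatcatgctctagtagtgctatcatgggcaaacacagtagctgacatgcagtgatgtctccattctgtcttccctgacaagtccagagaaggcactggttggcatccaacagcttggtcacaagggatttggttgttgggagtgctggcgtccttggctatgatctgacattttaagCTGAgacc

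For most of the RNAs, the letters matched the class named in the symbol. The ACA triplet was found in 34 of 36 Snora sequences (94.4%), and in 6 of 73 Snord and 4 of 9 Scarna sequences. The D box was found in 71 of 73 Snord sequences (97.3%), in 4 of 36 Snora and in 5 of 9 Scarna sequences, and a C box in 49 of 73 Snord sequences (67.1%), in 1 Snora and in 4 Scarna sequences. Among all 1558 annotated snoRNA and scaRNA transcripts of the build, 47.6% held the ACA triplet, 34.8% the D box and 22% the C box in the same windows. A match describes letters and is not a measured site. Of the 119 RNAs, 118 were matched to a locus, and Snord116 was not.

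Of the 119 RNAs, 106 had at least 1 count and 96 passed the filter on low counts, namely 32 Snora, 57 Snord and 7 Scarna. The 10 that had counts and failed the filter held between 1 and 56 counts over all 8 libraries. The remaining 13 were at 0 in every library, and a count of 0 allows up to 0.106 to 0.147 CPM (counts scaled by library total), or 3 counts, depending on the library and for counting error only. They include Snord118, also known as U8, which is needed for processing of the large-subunit ribosomal RNA in Xenopus. They also include 3 symbols of the Snord116 family, an imprinted cluster best known from neurons, as well as Snord14c and Snord14d. The sequences of Snord116l1 and Snord116l2 were identical to each other and to 29 other annotated copies, and Snord14c and Snord14d were 97.7% identical. Snord118, Snora26 and Snord93, also at 0, each had a copy of at least 95% identity, whereas Snora24, Snora35, Snord1a, Snord45c and Snord7 had none. Over all the RNAs with a sequence, 18 had such a copy. Whether reads shared between copies were lost in counting was not tested. Snord14a, whose RNA acts in processing of the small-subunit ribosomal RNA, had 21 counts in all. Among the tested RNAs, 11 have a copy of at least 95% identity elsewhere, and their counts are uncertain. Snora16a, Snora19 and Snora43 have an identical copy and held 540, 220 and 1495 counts.

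A small number of RNAs carried most of the signal. The 16 RNAs with a mean over 10 CPM took 85.0% of all counts of the 119, while 28 of the 96 tested RNAs had a mean under 1 CPM. The median of the tested members was 3.29 CPM for Snora, 1.13 CPM for Snord and 31.0 CPM for Scarna. Snord17 alone held 49.7% of the box C/D counts and 25.7% of all member counts, Snora74a held 31.1% of the box H/ACA counts and Scarna10 held 38.5% of the Cajal body counts.

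Per length, levels were higher in longer RNAs, and box C/D RNAs were mostly the shorter ones. The 51 RNAs under 100 nucleotides (nt) had a median of 14.2 CPM per kilobase (kb), the 37 between 100 and 150 nt a median of 22.8 CPM per kb, and the 8 over 150 nt a median of 268 CPM per kb. Across the 96 RNAs, Spearman's rho between length and CPM per kb was 0.34 with the GENCODE lengths and 0.23 with the RefSeq lengths. These are descriptions across genes that share their libraries, and CPM per kb itself contains the length. The length that the authors counted over is unknown, and the 2 annotations differ for some RNAs. Scarna10, for example, spans 325 nt in GENCODE and 71 nt in RefSeq. With GENCODE lengths, Snord17 had the highest level per length, 1325 CPM per kb, followed by Snord15b with 781 and Snord22 with 624 CPM per kb, and Scarna8 had the lowest, 3.08. With RefSeq lengths Snord17 had 1427 CPM per kb, Scarna10 came next with 1405 in place of 307, and Scarna2 had 508 in place of 74.9. Levels per length below use the GENCODE lengths.

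**Figure D1:**
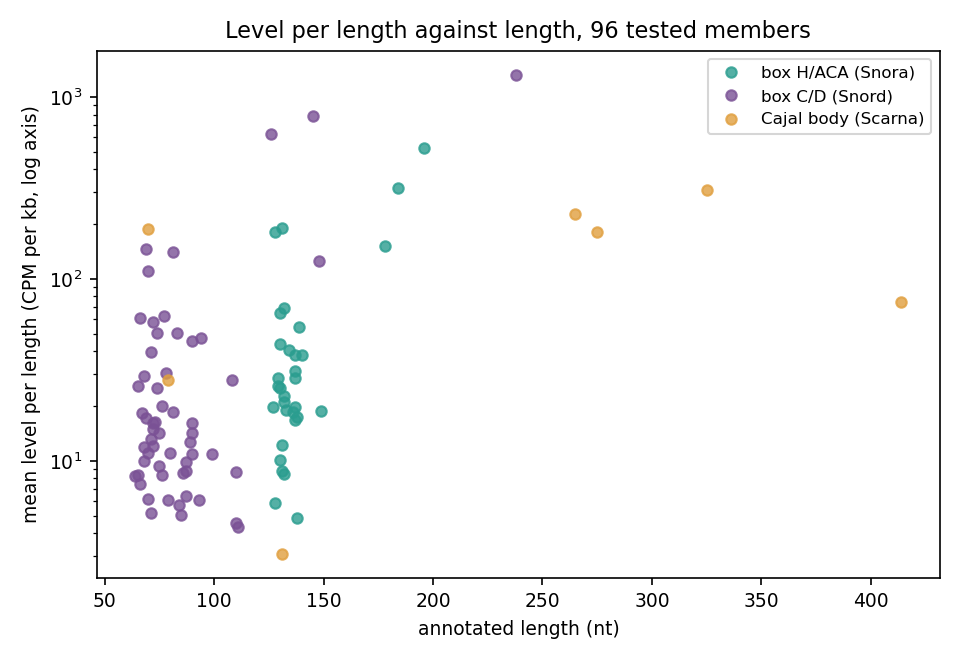
Mean level per length (CPM per kb, log axis) against annotated length (nt) for the 96 tested RNAs, coloured by class; each point is 1 RNA averaged over 8 libraries. The 8 RNAs over 150 nt had a median of 268 CPM per kb, against 14.2 in the 51 RNAs under 100 nt.

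In mutants, no snoRNA or scaRNA passed the test. With the edgeR quasi-likelihood test and Benjamini-Hochberg adjustment over 14861 genes, 0 of 96 were called at an adjusted p under 0.05, against a background of 0.00673% (1 gene, Pygo2 itself). The lowest adjusted p of any of them was 0.999975. At an unadjusted p under 0.05, 4 of 96 RNAs stood out, all lower in mutants, and the share among all genes was 1.3% in either direction, 0.814% for lower and 0.484% for higher values. DESeq2 and limma-voom each gave 3 such RNAs, against 1.62% and 1.41% of all genes, and the edgeR likelihood ratio test gave 5, against 167 of the 14861 genes. None of these tests called any. In the fit with the embryo number as a block, 9 had an unadjusted p under 0.05 against a background of 5.01%, and 0 were called. Read by pairs of the same embryo number, 11 of 96 RNAs were lower in the mutant in all 4 pairs, against 5.88% of all genes, and 0 were higher in all 4, against 6.27%. The 11 are Snord17, Snord1c, Snord35b, Snora23, Snora41, Snora65, Snora69, Snora74a, Snora81, Scarna2 and Scarna6. The authors' deposited table holds 70 of the RNAs, with 58 lower in mutants, a lowest p-value of 0.0219 and a lowest false discovery rate of 1.

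Pygo2, read first as a check of the labels, stood at 56.2, 54.1, 49.1 and 44.6 CPM in wild-type embryos 1 to 4 and at 22.0, 19.6, 18.5 and 17.3 CPM in mutants 1 to 4, so every library matched its label. Library totals ran from 20823890 to 28175968 counts, with wild-type 3 the lowest. The summed level of 6 neural markers was 438 CPM in wild-type 3, 533 in mutant 3 and 435 in mutant 4, and between 29.4 and 154 CPM in the other 5 libraries. That of 6 heart muscle markers was between 1531 and 1752 CPM in wild-type 3, wild-type 4, mutant 3 and mutant 4, and between 3447 and 4686 CPM in the other 4. In mutants, 5 neural markers had higher estimates and 1 a lower one, 6 heart muscle markers had higher estimates, and 0 were called. Of 7 arch mesenchyme markers, 7 had lower estimates in mutants, 2 of them at an unadjusted p under 0.05, and 0 were called. Their sums were 256 to 451 CPM in wild-type embryos and 219 to 335 CPM in mutants. Of 5 macrophage markers, 5 had higher estimates, 2 of them at an unadjusted p under 0.05, and 0 were called. Of 5 erythroid markers, 5 had lower estimates and 0 were called, with sums of 23326, 4714, 6751 and 7501 CPM in wild-type embryos and 7360, 9280, 4977 and 2811 CPM in mutants. In bulk tissue, fewer cells of a type and less RNA per cell cannot be told apart.

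The point estimates leaned to lower values in mutants. For box H/ACA and box C/D RNAs that lean rested on 1 wild-type library, and without it the Cajal body median shrank as well. Of the 96 RNAs, 74 had a log2 fold change under 0 (27 of 32 Snora, 43 of 57 Snord and 4 of 7 Scarna), beside 50% of all genes. The lean was not limited to these RNAs. Other sets were chosen after the values were seen. In them, 53 of 59 replication-dependent histone genes, 87 of 94 Rpl and Rps genes and 53 of 72 microRNA genes were lower. The Rpl and Rps genes were taken by the start of the symbol. They can include genes that do not code for ribosomal proteins. In the same order, the median log2 fold changes of the sets were -0.31, -0.17 and -0.20, beside -0.16 for the 96 RNAs. Whether the lean of those sets rested on 1 library was not tested. The median log2 fold change was -0.18 for Snora, -0.13 for Snord and -0.23 for Scarna. Wild-type 3 was the highest of the 8 libraries for 67 of the 96 RNAs, and for 15.8% of all genes. Without wild-type 3, 41 of 97 tested RNAs were lower and 56 higher, with a median of 0.044. By class, 12 of 32 Snora, 24 of 58 Snord and 5 of 7 Scarna were then lower, with medians of 0.036, 0.056 and -0.057, beside 50.2% of all genes. In that fit 1 of the 97 RNAs and 2.46% of all genes had an unadjusted p under 0.05. That RNA is not among the 96 and passed the filter on low counts without wild-type 3. Among the 96, the lowest unadjusted p in that fit was 0.0680 by edgeR, for Snord35b. With any other single library left out, between 65 and 78 were lower.

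The summed levels show the same library. Box H/ACA RNAs together reached 327, 321, 529 and 308 CPM in wild-type embryos 1 to 4 and 241, 306, 325 and 297 CPM in mutants 1 to 4. Box C/D RNAs reached 611, 591, 1018 and 585 CPM in wild-type embryos and 476, 610, 618 and 535 CPM in mutants. Cajal body RNAs reached 254, 247, 464 and 212 CPM in wild-type embryos and 201, 248, 254 and 178 CPM in mutants. Wild-type 3 stood above every other library in all 3 classes, mutant 1 was the lowest for box H/ACA and box C/D RNAs, and mutant 4 was the lowest for Cajal body RNAs. The other 3 wild-type embryos lay within or just above the range of the mutants.

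As group means, box H/ACA RNAs came to 371 ± 106 CPM in wild-type embryos and 292 ± 35.7 CPM in mutants (SD, n = 4 each), or 78.7% of the wild-type level. Without wild-type 3 that share was 91.7%. For box C/D RNAs the means were 701 ± 212 and 560 ± 67.3 CPM (SD, n = 4 each), or 79.8%, and 94.0% without wild-type 3. For Cajal body RNAs they were 294 ± 115 and 220 ± 36.9 CPM (SD, n = 4 each), or 74.7%, and 92.5% without it. In all 3 classes the difference between the means was smaller than the SD of the wild-type group.

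**Figure D2:**
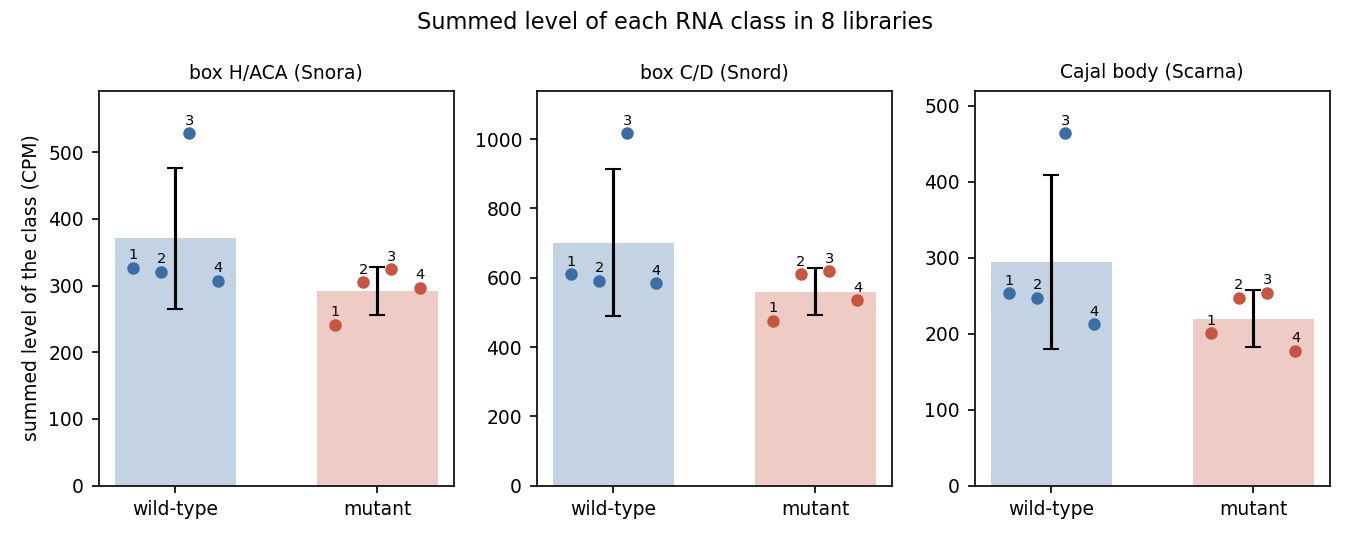
Summed level of each class (CPM, y axis from 0) in 4 wild-type and 4 mutant libraries; points are libraries with the embryo number, bars the group means and error bars the SD. Wild-type 3 stands above the other 7 libraries in each panel, at 529, 1018 and 464 CPM.

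Wild-type 3 exceeded the median of the other 7 libraries 1.72-fold for summed Snora, 1.72-fold for summed Snord and 1.88-fold for summed Scarna. The median of the single RNAs was 1.39-fold under 100 nt, 1.60-fold from 100 to 150 nt and 1.82-fold over 150 nt, with a Spearman's rho of 0.37 across the 96 RNAs. Scarna17 was lowest at 0.764-fold, and Snora15, a box H/ACA RNA with a mean of 1.60 CPM, was highest at 2.87-fold. Snord1b and Snord1c, which are 97.4% identical, differed widely, at 0.826-fold and 2.70-fold. Other RNA sets, chosen after these values were seen, were also high in wild-type 3. The median ratio was 1.43-fold for 59 replication-dependent histone genes, 1.25-fold for 72 microRNA genes and 1.18-fold for 94 Rpl and Rps genes. That of all genes was 0.986-fold. The Rpl and Rps genes were taken by the start of the symbol and can include genes that do not code for ribosomal proteins. The part of these sets, of the neural, heart muscle, arch, macrophage and erythroid markers, of depth and of RNA handling in the level of snoRNAs was not tested.

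Among box C/D RNAs, Snord17 was the most abundant, at 336, 321, 538 and 275 CPM in wild-type embryos 1 to 4 and 247, 295, 286 and 225 CPM in mutants 1 to 4. Wild-type 3 lay far above the rest, mutant 4 was the lowest, and wild-type 4 fell inside the range of the mutants, so the groups overlapped, though the mutant was the lower in all 4 same-numbered pairs. The log2 fold change was -0.48 (SE 0.20), with an unadjusted p of 0.0407 by the edgeR quasi-likelihood test, which did not pass adjustment. With the embryo number as a block it was -0.44, with an unadjusted p of 0.00884 and an adjusted p of 0.968 by edgeR. Without wild-type 3 it was -0.24.

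Snord15b and Snord15a sit in the same host gene, Rps3, and are 64.2% identical. Snord15b stood at 92.9, 94.8, 193 and 108 CPM in wild-type embryos and 70.8, 117, 125 and 104 CPM in mutants. Snord15a stood at 17.0, 18.2, 25.0 and 16.9 CPM in wild-type embryos and 14.1, 20.1, 19.6 and 16.8 CPM in mutants. Both were highest in wild-type 3 and lowest in mutant 1, and in the other libraries the groups were interleaved. Per length, Snord15b was the higher of the pair, at 781 against 125 CPM per kb, although they come from 1 host gene. Snord15b overlaps an exon of at least 1 Rps3 transcript and Snord15a lies in an intron, so exon reads of Rps3 may enter the Snord15b count alone. The log2 fold changes of Snord15b and Snord15a were -0.23 (SE 0.26) and -0.13 (SE 0.17), and without wild-type 3 they were 0.083 and 0.022.

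Snord22, also called U22, acts in processing of the small-subunit ribosomal RNA in Xenopus and is released from Snhg1, a noncoding host gene. It stood at 69.4, 64.1, 125 and 76.1 CPM in wild-type embryos and 57.6, 84.7, 78.9 and 72.9 CPM in mutants. Apart from wild-type 3, the groups covered the same range, and the log2 fold change was -0.19 (SE 0.22), or 0.074 without that library. Snord2 and Snord96a were the other box C/D RNAs above 10 CPM, with log2 fold changes of -0.17 (SE 0.24) and -0.0092 (SE 0.23).

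The box C/D RNAs with the lowest p beside Snord17 were scarce. Snord35b stood at 0.793, 0.466, 1.03 and 0.676 CPM in wild-type embryos and 0.376, 0.247, 0.452 and 0.433 CPM in mutants. It was the only member whose groups did not overlap, though wild-type 2 and mutant 3 nearly met, and among all genes 0.559% were lower without overlap. No member was higher without overlap, against 0.484% of all genes. Its log2 fold change was -0.96 (SE 0.35, unadjusted p 0.0212 by edgeR), and -0.77 without wild-type 3. Snord1c stood at 0.617, 0.466, 1.32 and 1.01 CPM in wild-type embryos and 0.251, 0.352, 0.490 and 0.542 CPM in mutants, with a log2 fold change of -1.05 (SE 0.41). Wild-type 2 fell inside the mutant range, and reads of Snord1c cannot be safely told from those of Snord1b.

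Of box C/D RNAs with higher estimates in mutants, Snord52, Snord34 and Snord71 had the lowest p, and none passed. Snord52 stood at 3.57, 3.56, 3.91 and 3.87 CPM in wild-type embryos and 3.93, 3.52, 4.75 and 5.24 CPM in mutants. Mutant 2 was below every wild-type embryo, and the other 3 mutants were above them all. The log2 fold change was 0.23 (SE 0.19) for Snord52, 0.45 (SE 0.30) for Snord34 and 0.51 (SE 0.49) for Snord71, and no group of these 3 was free of overlap.

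Among box H/ACA RNAs, Snora74a, in an intron on chromosome 18, stood at 110, 109, 160 and 94.97 CPM in wild-type embryos and 74.9, 95.4, 97.6 and 83.8 CPM in mutants. Only wild-type 4 fell inside the range of the mutants, and mutant 1 was the lowest. The log2 fold change was -0.43 (SE 0.17, unadjusted p 0.0288 by edgeR), and -0.25 without wild-type 3. It was the only box H/ACA RNA with an unadjusted p under 0.05.

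Snora23, in an intron of the importin gene Ipo7, stood at 59.99, 61.6, 97.6 and 49.9 CPM in wild-type embryos and 40.6, 54.2, 56.4 and 43.6 CPM in mutants. Snora81, in the gene of the translation factor Eif4a2, stood at 28.6, 28.5, 44.9 and 22.3 CPM in wild-type embryos and 19.2, 24.3, 26.3 and 21.4 CPM in mutants. In both, wild-type 3 was highest, wild-type 4 lay within the mutants, and wild-type 1 and 2 lay above all mutants. Their log2 fold changes were -0.47 (SE 0.21) and -0.45 (SE 0.21), and without wild-type 3 -0.23 and -0.21.

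Snora68 stood at 21.9, 19.3, 51.8 and 20.5 CPM in wild-type embryos and 15.8, 22.4, 24.6 and 23.4 CPM in mutants. Wild-type 3 lay far above any other library, and 3 of 4 mutants exceeded the other wild-type embryos. Its log2 fold change was -0.40 (SE 0.32), or 0.069 without wild-type 3. Snora78, too, was highest in wild-type 3, at 20.8, 19.2, 37.5 and 22.4 CPM in wild-type embryos and 17.2, 21.1, 25.0 and 22.4 CPM in mutants, with a log2 fold change of -0.22 (SE 0.22) and 0.044 without that library. Snora17, with a mean of 9.09 CPM and no annotated host, had a log2 fold change of -0.18 (SE 0.23). Of the 5 box H/ACA RNAs with higher estimates in mutants, Snora52, Snora47 and Snora28 had the lowest p, with log2 fold changes of 0.18 (SE 0.20), 0.22 (SE 0.35) and 0.13 (SE 0.22).

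Among Cajal body RNAs, Scarna10, which in human cells guides both methylation and pseudouridylation of a spliceosomal RNA, stood at 97.9, 87.8, 212 and 71.2 CPM in wild-type embryos and 73.4, 96.5, 99.3 and 59.9 CPM in mutants. Wild-type 3 was above every other library, and the other 3 wild-type embryos spanned much the same range as the mutants. Its log2 fold change was -0.51 (SE 0.33), and -0.057 without wild-type 3.

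Scarna6, in an intron of the autophagy gene Atg16l1, stood at 58.6, 59.5, 122 and 48.0 CPM in wild-type embryos and 41.9, 56.2, 53.3 and 45.5 CPM in mutants. Scarna13, in an intron of the noncoding gene Snhg10, stood at 50.4, 46.2, 79.9 and 48.2 CPM in wild-type embryos and 31.8, 53.3, 53.8 and 35.8 CPM in mutants. In Scarna6, wild-type 1, 2 and 3 lay above all mutants, whereas in Scarna13 mutants 2 and 3 exceeded 3 of the wild-type embryos. Their log2 fold changes were -0.55 (SE 0.27) and -0.36 (SE 0.23), and without wild-type 3 -0.17 and -0.14.

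Scarna2, whose human counterpart guides methylation and which has no annotated host gene, was less high in wild-type 3, at 1.20-fold the median of the other 7 libraries. It stood at 30.9, 36.03, 36.7 and 30.1 CPM in wild-type embryos and 30.5, 26.5, 35.2 and 22.1 CPM in mutants, with overlap between the groups. Mutants differed from wild-type by a log2 fold change of -0.23 (SE 0.15), and -0.18 without wild-type 3. Scarna9 stood at 13.6, 14.7, 11.4 and 12.5 CPM in wild-type embryos and 19.4, 12.5, 10.4 and 11.4 CPM in mutants. Mutant 1 was the highest and mutant 3 the lowest, and the log2 fold change was 0.036 (SE 0.21). Wild-type 3 lay at 0.918-fold the median of the other libraries for Scarna9 and at 0.764-fold for Scarna17, where it was the lowest. Scarna17 and Scarna8 had higher estimates in mutants, 0.19 (SE 0.25) and 0.11 (SE 0.43), and both were low, with means of 2.20 and 0.403 CPM.

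The 8 RNAs over 150 nt (Snord17, Snora74a, Snora23, Snora81, Scarna10, Scarna6, Scarna13 and Scarna2) had estimates under 0 in both fits. Their median log2 fold change was -0.46 with all 8 libraries and -0.20 without wild-type 3. This length limit was chosen after the values were seen, and none of the 8 passed the test in either fit.

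**Figure D3:**
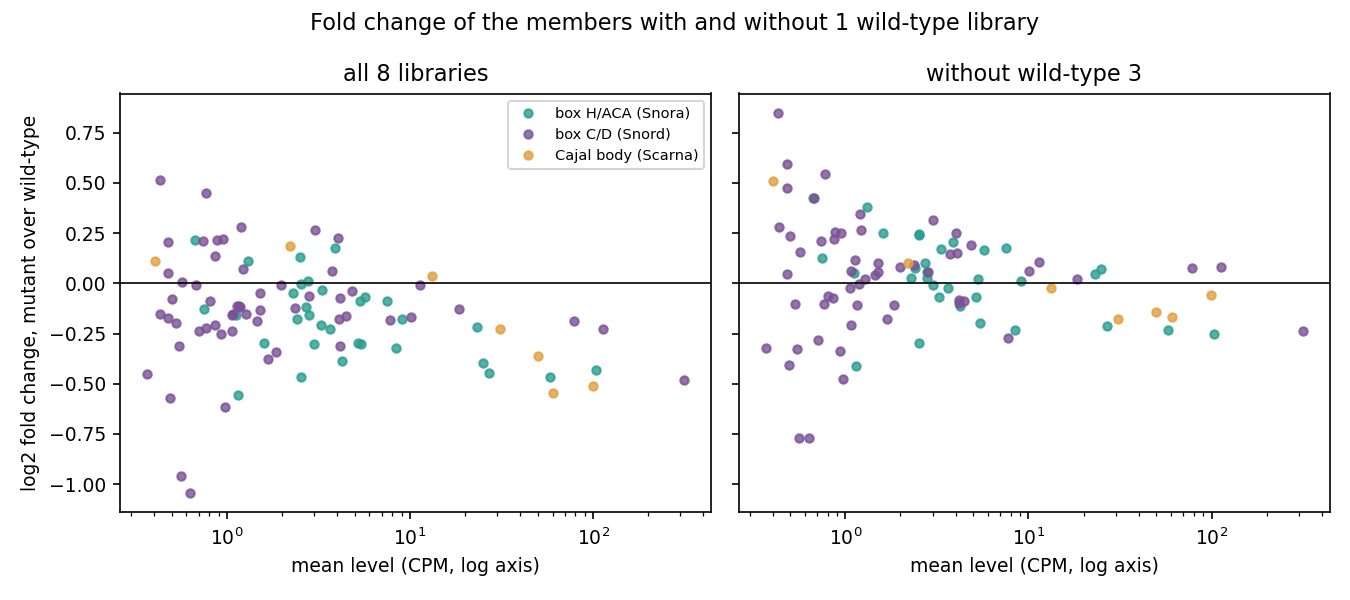
Log2 fold change, mutant over wild-type, of each tested RNA against its mean level (CPM, log axis), from all 8 libraries on the left and without wild-type 3 on the right; points are single RNAs coloured by class and the line marks no change. On the left 74 of 96 points lie under 0, and on the right the RNAs scatter on both sides with a median over the 97 then tested of 0.044.

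Host genes gave a comparison within the same libraries. A host on the same strand was annotated for 112 of the 118 matched RNAs, and it codes for protein for 86 of them. Of the 112, 60 lie in introns alone and 52 overlap an exon of at least 1 host transcript, where reads of both genes can overlap. Both the RNA and the host were tested for 85 RNAs with 64 hosts, of which 22 are ribosomal protein genes that host 29 of the RNAs. None of the hosts was called, 45 were lower and 19 higher in mutants, and the hosts had a median log2 fold change of -0.047. The RNA and its host had the same sign in 56 of 85 cases. Of these RNAs, 33 of the 43 in introns alone and 34 of the 42 that overlap an exon were lower. As most hosts were lower too, many shared signs come from these leans. A link between RNA and host was not tested.

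Wild-type 3 was less prominent in the hosts. The median ratio of wild-type 3 to the other 7 libraries was 1.14-fold for these hosts and 1.53-fold for the RNAs, and the RNA exceeded its host in 70 of 85 cases. For RNAs in introns alone the median was 1.52-fold, and for those that overlap a host exon 1.57-fold. Snx5, a sorting nexin that hosts Snord17, had a log2 fold change of -0.050 (SE 0.096), and Ncapd2, a condensin subunit that hosts Scarna10, had 0.011 (SE 0.15). Atg16l1 had 0.076 (SE 0.097) and Ipo7 -0.029 (SE 0.13), while Snhg10 had -0.41 (SE 0.24).

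**Figure D4:**
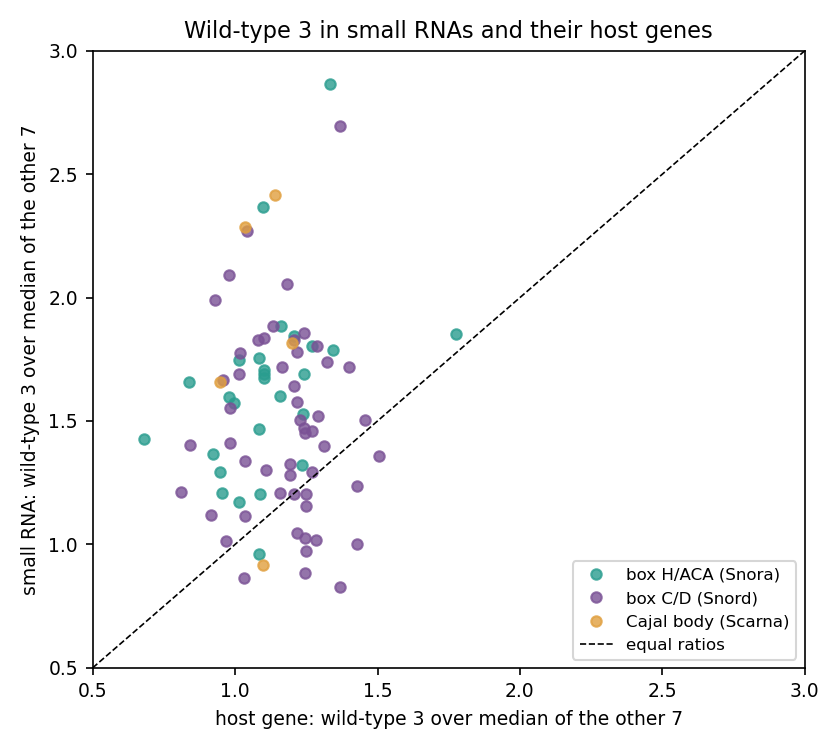
Ratio of wild-type 3 to the median of the other 7 libraries for each small RNA (y axis) against that of its host gene (x axis), for 85 pairs coloured by class; the dashed line marks equal ratios. The RNA lies above the line in 70 of 85 pairs.

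The small RNAs of Rps3 differed in level, while those of Eif4a2 were close, at 151 CPM per kb for Snora81 and 147 for Snord2. Per length, 21 of 85 RNAs exceeded the exons of their host, a comparison of unlike molecules over annotated lengths. Snord17 had 1325 CPM per kb and Snx5 65.0, and Scarna13 had 182 CPM per kb and Snhg10 3.24. Of the 29 RNAs in ribosomal protein genes, 1 exceeded its host per length (Snord15b, which overlaps an exon of Rps3), as did 20 of the 56 in other hosts. The median level of the RNAs was 21.1 CPM per kb in ribosomal protein genes and 18.02 in other hosts, whereas that of the hosts themselves was 542 and 30.4 CPM per kb. Snhg12, a noncoding host, held 4 tested RNAs (Snora16a, Snora44, Snora61 and Snord99) at 19.9 to 43.9 CPM per kb. In Rpl23a, 3 box C/D RNAs ranged from 8.38 to 17.2 CPM per kb.

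Of the genes that build and use these RNAs, 0 were called in any list by edgeR, and 1 (Exosc3) had an unadjusted p under 0.05. Of the core proteins of box C/D particles, 1 was higher and 3 were lower in mutants. Fbl, the methyltransferase fibrillarin, stood at 97.5 ± 11.7 CPM in wild-type embryos and 94.2 ± 17.5 CPM in mutants (SD, n = 4 each). Of the core proteins of box H/ACA particles, 4 of 4 had estimates under 0, with Dkc1, the pseudouridine synthase dyskerin, at 106 ± 10.1 and 102 ± 11.8 CPM (SD, n = 4 each). Assembly factors split into 4 higher and 9 lower, Cajal body and cap factors into 6 and 5, factors of 3′ end maturation and decay into 9 and 4, and genes of RNA polymerase I and ribosomal RNA processing into 10 and 18. Coil, the Cajal body scaffold coilin, was at 34.8 ± 2.39 and 30.4 ± 2.38 CPM (SD, n = 4 each). Exosc3, a subunit of the RNA exosome, was at 27.8 ± 3.51 and 22.2 ± 3.28 CPM (SD, n = 4 each, unadjusted p 0.0442 by edgeR), and it did not pass adjustment. Noncoding host genes split into 2 higher and 11 lower.

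Other structured RNAs without a poly(A) tail were also lower in mutants in their estimates, 7 of 7, with -0.34 as the median log2 fold change and 0 called. Terc, the telomerase RNA, carries an H/ACA domain and binds dyskerin. It stood at 22.3, 28.4, 40.4 and 23.0 CPM in wild-type embryos and 18.2, 16.1, 25.8 and 15.7 CPM in mutants. Wild-type 3 was again the highest library, and mutant 3 exceeded wild-type 1 and 4. The log2 fold change was -0.59 (SE 0.23), with an unadjusted p of 0.0298 by edgeR, which did not pass adjustment. Rpph1, the RNA of ribonuclease P, had -0.51 (SE 0.22).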

How the data were processed

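RNA was sequenced from arches with heart of 8 embryos at 10.5 days post coitum, 4 per genotype. Per the submitters' processing notes, the tools were TopHat2 2.0.11 and HTSeq 0.6.1, with edgeR 3.14 and the mm10 build. The sources used here do not give the annotation or the strand setting of the counting, which leaves overlapping genes uncertain. The authors deposited raw counts per gene symbol, used here. The authors' deposited comparison table holds for each gene a log2 fold change, a ratio (linear fold), a false discovery rate and a p-value. A table of scaled signal that the authors deposited was not used.

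Genes were filtered by filterByExpr in edgeR 4.0.16 (R 4.3.3), scaled by TMM and tested over 14861 genes by the two-sided quasi-likelihood test on genotype, with Benjamini-Hochberg adjustment. An adjusted p under 0.05 is a call. CPM uses TMM-scaled totals. The fit was tested on simulated data. Alternatives used DESeq2 1.42.0, limma 3.58.1, other scalings and filters, a block, and each library left out in turn. The labels number embryos 1 to 4 in both groups. Deviations of same-numbered libraries from their group means correlated at 0.56, 0.18, 0.68 and 0.19, each over 0.1, and values were therefore also read by number. Libraries with different numbers were not compared in this way, so these values cannot show that the numbers pair embryos. No source used here states a pairing, and the main fit left the number out. Positions, lengths, hosts and sequences come from GENCODE M21, with RefSeq lengths beside them.

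The members and gene lists were chosen with earlier results of these data known. RNAs named in the text are, per class, those with the highest mean CPM, the lowest p in each direction, no overlap between groups, a well-known role or the largest spread, with their hosts. Scarna9, Snora15, Snora16a, Snora19, Snora41, Snora43, Snora44, Snora61, Snora65, Snora69, Snord1b and Snord99, further RNAs at 0, and the hosts Snhg12 and Rpl23a, were named after their values were seen. Results that need items withheld from this text are not reported here.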

Additional observations from a re-analysis of the deposited data

Results flagged for a closer look

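A library far from the other 3 of its group was found in 11 of 90 groups of 4 libraries examined. Chance gives about 1 in 20 for groups not chosen by their values. The measure is the gap to the nearest library divided by the range of the group, set against Dixon's 95% critical value. In 9 of the 11, wild-type 3 was the highest wild-type library. It reached 0.912 for summed Snora, 0.940 for summed Snord, 0.836 for summed Scarna and 0.904 for all members together. Among single RNAs it reached 0.875 for Scarna13, 0.844 for Scarna6, 0.921 for Snora68, 0.843 for Snord15a and 0.854 for Snord15b. Wild-type 4 was high for the summed level of other structural RNAs, at 0.884, and wild-type 1 for the summed level of erythroid markers, at 0.850. These groups share their libraries and are not independent of each other. Some of the single RNAs, among them Scarna6, Snora68 and Snord15b, were named for a large spread between these same libraries. Others were named for a low p or no overlap. The share of 11 in 90 therefore cannot be set against 1 in 20.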

How the results depend on the processing

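No snoRNA or scaRNA was called under any of the scalings, filters, tests, the replicate block or the fits that left out 1 library. Between 71 and 74 of 96 RNAs were lower in mutants with all 8 libraries on the same genes. With no low count filter 80 of 106 were lower, and the Scarna median was 0.040. Leaving out 1 library gave medians from -0.26 to 0.036 for Snora, from -0.21 to 0.056 for Snord and from -0.34 to -0.057 for Scarna, each highest without wild-type 3, and from 0 to 1 genes called among all. The call of Pygo2 was lost without wild-type 1, wild-type 2, mutant 2, mutant 3 or mutant 4. Medians also rose without single mutant libraries. They were -0.10 for Snora without mutant 1, -0.062 for Snord without mutant 2 and -0.12 for Scarna without mutant 4. The low ends of the ranges above are moves the other way. The replicate block gave medians of -0.16, -0.12 and -0.24 and changed no call. Without wild-type 3 the estimate of 35 tested RNAs turned from lower to higher and that of 1 from higher to lower. Of the 26 tested RNAs that the naming rule chose, 9 turned when 1 library was left out, 7 of them without wild-type 3 alone. Their log2 fold changes ran from -0.31 to 0.013 for Snora17, from -0.54 to 0.069 for Snora68, from -0.33 to 0.044 for Snora78, from -0.20 to 0.022 for Snord15a, from -0.34 to 0.083 for Snord15b, from -0.29 to 0.059 for Snord2 and from -0.29 to 0.074 for Snord22. Snord96a ran from -0.12 to 0.13 and Scarna8 from -0.13 to 0.51, Snord96a turning without wild-type 3, wild-type 4, mutant 1 or mutant 2 and Scarna8 without wild-type 1 or wild-type 4. The cause was not tested. Summed levels stayed between 74.7% and 88.9% of wild-type when the scaling changed or the highest member was left out. Low counts limit the 28 RNAs under 1 CPM most.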
